A study of Mus musculus with 2931 samples.

Results

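The 10 heat shock genes described here are Hspa1a, Hspa1b, Hspa8, Dnajb1, Hsph1, Bag3, Hsp90aa1, Hsp90ab1, Hspb1 and Hspe1, taken by their symbols from a table of 18072 genes measured in single endothelial cells (EC, the lining of blood and lymph vessels) from mouse lung. All 10 were found. They were picked because most of them had higher levels in EC of 21-day-old mice (P21) than of 7-day-old mice (P7) in these same cells, so every difference between P21 and another age is given as a description, with no test, and supports nothing further. The 2931 cells came from the distal lung of 10 mice in 5 groups. In normal air these were embryos of day E18.5 and mice at P1, P7 and P21 (postnatal days 1, 7 and 21); the last group was P7 mice after hyperoxia, that is, raised oxygen in the air they breathed. A female and a male mouse name made up every group, so a group mean below is over n = 2. The strain, the oxygen level, the length of exposure, and whether mouse names are single animals or pools are not given in the sources used here. The p-values between ages or treatments therefore measure the spread between these mouse names, which may be partly technical and holds any difference between the sexes. Those between classes or gates measure the spread of the differences within mouse names.

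Heat shock proteins are chaperones: they bind unfolded proteins and help them fold, keep them soluble or pass them on for breakdown. Most cells make some of them at all times, while others are nearly silent until heat, oxidants or other stress frees the transcription factor HSF1, which binds heat shock elements in their promoters. Taking a tissue apart with enzymes and sorting its cells can itself switch on these genes, together with immediate early genes such as Fos and Egr1, and the lung endothelium meets oxygen and shear stress in life as well.

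The cells were sorted by a gate for the endothelial surface protein CD31 (2694 cells), by a gate named mesench (224 cells) or by a CD45 gate (13 cells). Each cell was a library of its own from 1 well of a plate. The table held 2062278606 reads, between 42095 and 2967985 in a cell with a median of 621406, and between 56564316 and 331392982 in a mouse. Levels are given as CPM: the reads of a gene, summed over the cells of a class in 1 mouse, scaled to 1000000 reads of that sum. Classes were the authors' subtype labels, used for mice with at least 8 cells. Because these labels were made from expression, and whether the 10 genes entered that step is not given in the sources used here, a difference between classes is not fully independent of how the classes were drawn. The main class was the Car4- capillaries (Early and Late labels together, 116 to 272 cells per postnatal mouse), followed by the Car4+ capillaries (17 to 77 cells). The markers went with the labels: Car4, Ednrb, Apln and Fibin summed to between 6947 and 14570 CPM in Car4+ capillaries and to between 339 and 955 CPM in Car4- capillaries of postnatal mice, and 5 endothelial markers summed to between 2626 and 4147 CPM in the Car4- capillaries of those mice.

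A small set of cells stood apart. The E18.5 female mouse had 13 cells with a Car4- label, with a median of 866 detected genes after every cell was thinned to 50000 reads, against medians of 1178 to 3236 in the other mice. Single cells made up most of their heat shock reads: 1 cell held all 693 reads of Hspa1b, 5128 of the 5799 reads of Hsp90aa1 and 2156 of the 2179 reads of Hspb1 came from 1 cell each, and so did 21075 of the 46392 reads of Hsp90ab1. The comparisons of venous, arterial and proliferative EC with Car4- capillaries and the count over all Car4- mice include these cells and are also given without that mouse.

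Heat shock element letters stood in the promoters of 5 members. The 250 bases before the start site of Hspa1a, Hspa1b and Hspb1 are printed because these 3 genes had the largest differences at P21, and 30 bases are printed for Hsph1 and Hspe1, the other genes with a match. Capitals mark the heat shock element units, searched as the letters GAANNTTC and TTCNNGAA on both strands, which may overlap one another. The sequences are from RefSeq on GRCm38.p6 and read 5′ to 3′ on the gene's strand. They lie at chr17:34972157-34972406 on the minus strand (Hspa1a), chr17:34959239-34959488 on the minus strand (Hspa1b), chr5:135887669-135887918 on the plus strand (Hspb1), chr5:149636351-149636380 on the minus strand (Hsph1) and chr1:55088053-55088082 on the plus strand (Hspe1). The start sites are those of RefSeq. By GENCODE, Hsph1 begins at chr5:149636376 on the minus strand, so most of its stretch, with the whole marked unit, lies past that start in its first exon.
Hspa1a: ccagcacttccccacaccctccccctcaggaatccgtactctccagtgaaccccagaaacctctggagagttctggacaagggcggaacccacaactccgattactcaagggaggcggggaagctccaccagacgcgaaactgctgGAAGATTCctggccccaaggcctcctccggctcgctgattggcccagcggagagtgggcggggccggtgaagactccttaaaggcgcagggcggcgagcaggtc
Hspa1b: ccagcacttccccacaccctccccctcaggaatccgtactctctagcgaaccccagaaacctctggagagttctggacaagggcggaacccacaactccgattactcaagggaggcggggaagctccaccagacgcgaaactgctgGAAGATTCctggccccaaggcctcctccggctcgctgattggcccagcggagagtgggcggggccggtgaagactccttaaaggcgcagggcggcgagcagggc
Hspb1: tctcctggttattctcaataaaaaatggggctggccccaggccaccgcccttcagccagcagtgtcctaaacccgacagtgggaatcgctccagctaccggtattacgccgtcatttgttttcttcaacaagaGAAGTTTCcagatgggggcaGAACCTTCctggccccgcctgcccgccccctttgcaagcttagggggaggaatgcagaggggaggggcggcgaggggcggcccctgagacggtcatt
Hsph1: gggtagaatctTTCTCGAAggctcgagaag
Hspe1: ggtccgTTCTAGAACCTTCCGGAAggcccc

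Of the 7 members with a RefSeq promoter in the table used, 5 held a unit within 250 bases, and Dnajb1 and Bag3 held none in theirs; Hspa8, Hsp90aa1 and Hsp90ab1 had no entry. Among all 32851 promoters of that length, 12.8% held either unit: GAANNTTC was found in 6.69% and TTCNNGAA in 7.17%. Hspa1a and Hspa1b had 1 unit each, 104 to 97 bases before the start, and Hspb1 had 2 units, 117 to 110 and 97 to 90 bases before the start. The longer run TTCNNGAANNTTC, or its reverse complement GAANNTTCNNGAA, holds 2 of these units that overlap. It was in 0.466% of promoters, and Hspe1 was the only member of the 7 with it. A match of letters is a description of the sequence and not a measured binding site. Hspa1a (chr17:34969190-34972156, minus strand) and Hspa1b (chr17:34956436-34959238, minus strand) are neighbouring copies: their open reading frames differed at 8 positions (99.43% identical) and their 250 bases before the start at 3 (98.8% identical). In windows of 50 bases, 58.81% of the Hspa1a transcript and 62.31% of the Hspa1b transcript occurred letter for letter in the other copy, so the split of reads between the 2 genes is uncertain. The other members lie, in GENCODE M21 on GRCm38, at chr9:40800984-40810087 (Hspa8), chr8:83608193-83612653 (Dnajb1), chr5:149614287-149636376 (Hsph1), chr7:128523616-128546981 (Bag3), chr12:110690605-110702728 (Hsp90aa1), chr17:45567775-45573271 (Hsp90ab1), chr5:135887919-135889563 (Hspb1) and chr1:55088132-55091307 (Hspe1), and all 10 are annotated as protein-coding.

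Across the genes, the level per kb of exon ordered the family in a different way at P7 and at P21. The length was that of all annotated exons of a gene merged, which can exceed the length of a single transcript. Per kb of exon, the mean in Car4- capillaries of P7 mice in normal air was 696 CPM for Hsp90ab1 and 194 CPM for Hspa8, the constitutive cytosolic HSP90 and HSP70. It was 60.5 CPM per kb for Dnajb1, 35.4 for Hspe1, 31.5 for Hsp90aa1, 25.8 for Bag3, 14.2 for Hspb1 and 2.36 for Hsph1, and Hspa1a and Hspa1b closed the order at 0.198 and 0.0496 CPM per kb. At P21 Hsp90ab1 still led with 993 ± 201 CPM per kb (SD, n = 2), but Hspa1a stood beside Hspa8 (199.7 ± 54.8 and 197 ± 80.1 CPM per kb). The next in the P21 order were Hsp90aa1 (161 ± 73.4), Dnajb1 (148 ± 72.4) and Hspb1 (136 ± 76.1), then Bag3 (72.5 ± 21.7), Hspe1 (56.6 ± 25.7), Hspa1b (25.8 ± 7.49) and Hsph1 (11.8 ± 8.55), all in CPM per kb. From Hspa1a to Hspb1 these P21 neighbours differed by less than the spread between the mice, and so did Bag3 and Hspe1. The order depends on the exon lengths used, 2967 bases for Hspa1a and 4301 for Hspa8. In plain CPM the P21 means of these genes were 593 ± 163 and 848 ± 344 CPM.

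The stress-inducible HSP70 genes Hspa1a and Hspa1b were near 0 CPM in all postnatal mice but those of P21. In Car4- capillaries Hspa1a was at 2.42 CPM in the P1 female and 0.0202 CPM in the P1 male mouse, at 1.11 and 0.0684 CPM in the P7 mice, and at 477 CPM in the P21 female and 708 CPM in the P21 male mouse. Both P21 mice were far above every younger postnatal mouse, and the male mice of P1 and P7 had 2 reads each. Hspa1b had 0.365 and 0.0101 CPM at P1, 0.141 and 0.137 CPM at P7, and 57.4 and 87.1 CPM at P21. After scaling with TMM (trimmed mean of M-values, edgeR's correction for composition), the ratio of the P21 mean to the P7 mean in Car4- capillaries was 1098-fold for Hspa1a and 573-fold for Hspa1b. The P7 means behind these folds rested on few cells: all 204 reads of Hspa1a in the P7 female mouse came from 1 cell. Among Early-labelled cells, Hspa1b had 25 reads in 4 cells of the P7 female and 4 reads in 1 cell of the P7 male mouse. Without the P7 female mouse the Hspa1a difference moved from 10.1 to 12.65 on the log2 scale, where the 2 reads of the P7 male mouse were set at a floor of 3. In Car4+ capillaries Hspa1a was at 961 and 539 CPM in the P21 mice, at 4.08 CPM in the P1 female, and at 1 read or none in the P1 male and both P7 mice. Hspa1b had no read in either P7 mouse there and at least 53.4 CPM in both P21 mice. In these Car4+ cells 3 reads were worth 0.0721 CPM in the P7 female and 0.388 CPM in the P7 male mouse, so no fold is given.

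**Figure D1:**
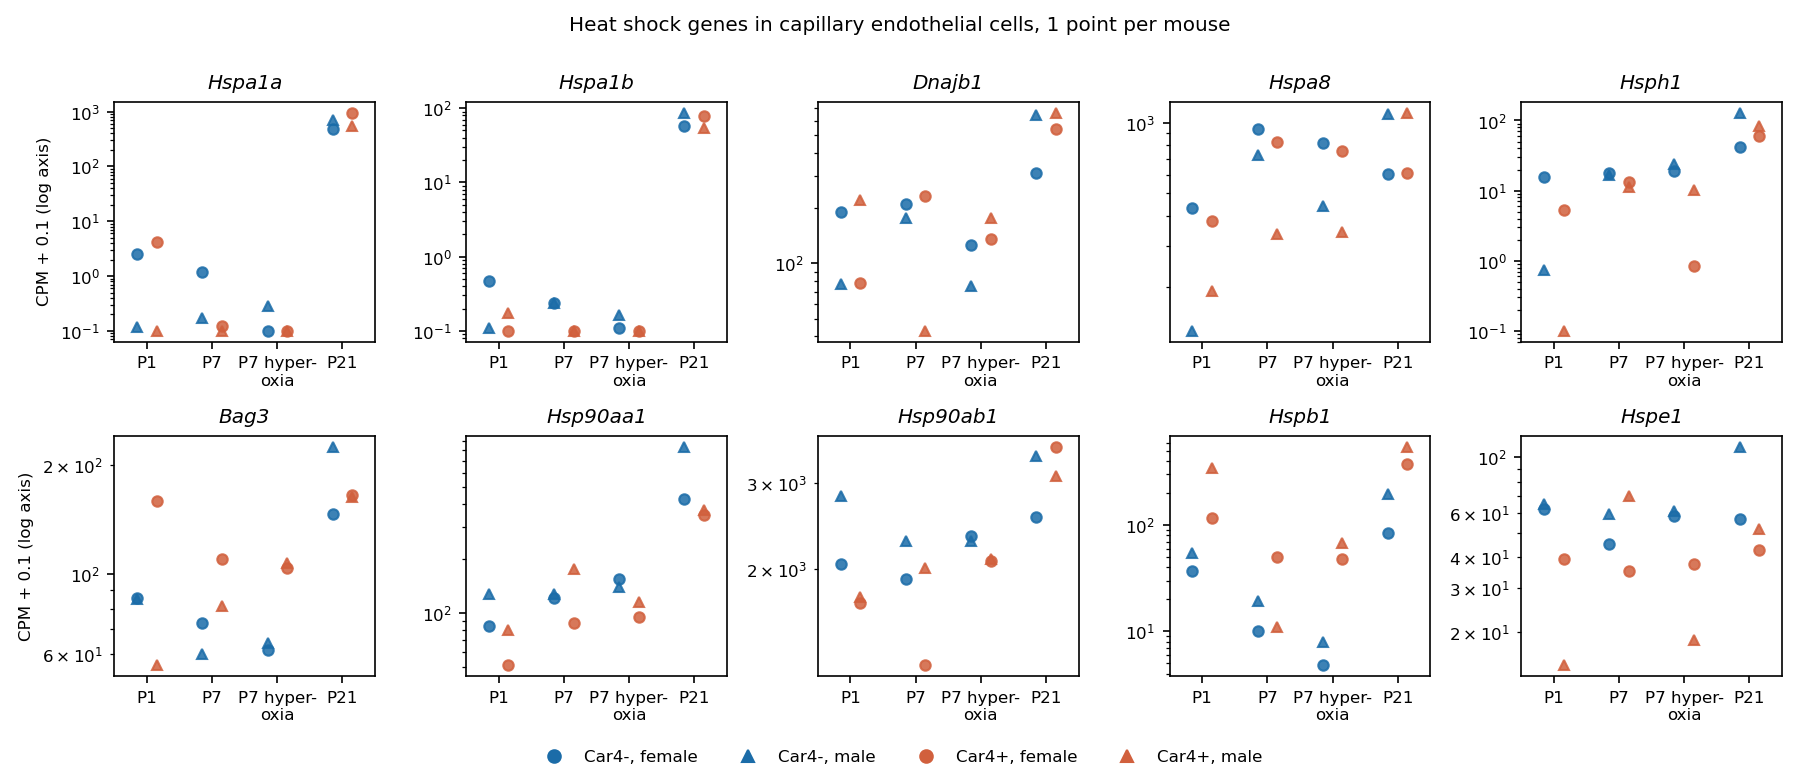
Levels of the 10 heat shock genes in CPM (log axis, 0.1 added) by group (P1, P7, P7 hyperoxia, P21), 1 point per mouse, circles for female and triangles for male mice, in blue for Car4- and in orange for Car4+ capillaries. The P21 points of Hspa1a lie between 477 and 961 CPM, all other points of Hspa1a at or below 4.08 CPM, and the points of Hspa8 and Hspe1 overlap between P7 and P21.

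The partners of HSP70 had smaller differences, and its constitutive form had none beyond the spread. Dnajb1, the HSP40 that delivers clients to HSP70, was at 211 and 177 CPM in the P7 mice and at 312 and 640 CPM in the P21 mice of the Car4- class. Hsph1, an HSP110 that exchanges the nucleotide of HSP70, was at 17.8 and 16.5 CPM at P7 and at 42.0 and 130 CPM at P21. Bag3, which links HSP70 to small heat shock proteins and autophagy, was at 72.6 and 59.6 CPM at P7 and at 147 and 225 CPM at P21. For these 3 genes the male P21 mouse was the higher one and neither P21 mouse overlapped the P7 mice in the whole class. Within the Late label, which holds nearly all P21 cells of the class, Dnajb1 was at 506 CPM in the P7 female mouse (44 cells), between the P21 mice. Hspa8, the constitutive HSP70, was at 941 and 725 CPM at P7 and at 604 and 1091 CPM at P21, so the ages overlapped, and at P1 it was lower, at 434 and 130 CPM. The TMM-scaled ratio of P21 to P7 in this class was 5.62-fold for Hsph1, 3.09-fold for Bag3, 2.73-fold for Dnajb1 and 1.13-fold for Hspa8. In Car4+ capillaries the P21 mice had 539 and 664 CPM of Dnajb1 and 59.8 and 82.6 CPM of Hsph1, again above both P7 mice (233 and 42.8 CPM; 13.1 and 11.3 CPM).

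The HSP90 pair differed in the same sense, the inducible gene more than the constitutive one. Hsp90aa1 was at 121 and 127 CPM in Car4- capillaries of the P7 mice, close to the 83.7 and 127 CPM of P1, and at 430 and 837 CPM at P21, a TMM-scaled ratio of 5.68-fold. Hsp90ab1 was at 1900 and 2275 CPM at P7 and at 2551 and 3405 CPM at P21, a ratio of 1.57-fold, and the P1 male mouse with 2818 CPM lay between the P21 mice. In Car4+ capillaries the ratio was 2.498-fold for Hsp90aa1 and 1.87-fold for Hsp90ab1.

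The small heat shock protein differed more than the mitochondrial co-chaperonin. Hspb1 (HSP27), which holds unfolded proteins and binds actin, was at 36.9 and 54.6 CPM in Car4- capillaries at P1, at 9.97 and 19.4 CPM at P7, and at 84.4 and 195 CPM at P21. It was thus lower at P7 than at P1 and higher at P21 than at both, with no overlap between the ages, and the ratio of P21 to P7 was 10.7-fold. Hspe1 (HSP10), the lid of the mitochondrial chaperonin, was at 44.8 and 59.4 CPM at P7 and at 56.6 and 110 CPM at P21, which overlapped. In Car4+ capillaries Hspb1 was at 49.7 and 10.99 CPM at P7 and at 374 and 548 CPM at P21 (15.8-fold), and Hspe1 at 34.9 and 69.8 CPM at P7 and at 42.4 and 51.6 CPM at P21.

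Both P21 mice were above both P7 mice for 8 of the 10 genes in Car4- and for 8 of 10 in Car4+ capillaries, with Hspa8 and Hspe1 overlapping in both. The same held for 19.9% of 14967 genes in Car4- and for 20.9% of 12284 genes in Car4+ capillaries. Both P21 mice were above every other mouse for 4 of 10 genes in Car4- capillaries, where 7 other mice include the E18.5 female (all genes 5.79%), for 7 of 10 there among postnatal mice alone (all genes 6.65%), and for 8 of 10 in Car4+ capillaries, with 6 other mice (all genes 5.21%). The members were chosen on this contrast, so nothing is read from these counts. The median difference of the 10 genes in Car4- capillaries was 1.91 on the log2 scale in plain CPM, where the median of all genes was -0.06, and 2.06 after TMM scaling. Without the P21 male mouse the median was 1.246, and Hspa8 was then lower at P21 than at P7 by -0.44. Markers of other cells moved with the age as well. In Car4- capillaries, 6 mesenchymal markers summed to 19.1 and 20.997 CPM in the P21 mice and to between 3.56 and 15.1 CPM in the other postnatal mice, with no marker at 0 in either P21 mouse. There, 5 epithelial markers summed to 76.8 and 169 CPM at P21 (1 of them at 0 in the male mouse) and to 28.5 and 51.5 CPM at P7 (1 at 0 in each mouse), within a range of 28.5 to 114 CPM over all the younger postnatal mice. In Car4+ capillaries the mesenchymal markers summed to 26.02 and 22.2 CPM at P21 (1 at 0 in the female mouse) and to between 0.669 and 6.51 CPM in the other mice (0 to 4 of them at 0). Median detected genes of thinned cells were 2078 and 1178 in the P21 mice. The part of these markers and of RNA content in the differences was not tested.

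The high level of Hspa1a at P21 came from a part of the cells. After thinning to 50000 reads, 33.1% of 272 Car4- cells of the P21 female (95% Clopper-Pearson interval 27.5% to 39.0%) and 51.1% of 268 cells of the P21 male mouse (45.0% to 57.2%) had a read of Hspa1a. The P1 female mouse had 1.67%, the P7 female 0.485% and the male hyperoxia mouse 0.758%. No thinned cell had a read in the P1 male (0 of 122 cells, where 3 cells would be 2.46%), the P7 male (0 of 113 cells, 2.65%) and the female hyperoxia mouse (0 of 153 cells, 1.96%), and the Clopper-Pearson upper bounds of these shares are 2.98%, 3.21% and 2.38%. They limit the share of thinned cells with a read, not of cells that express the gene. These intervals and limits cover counting error only, since PCR copies of a molecule count as separate reads. Without thinning the P21 shares were 34.6% and 54.5%. Hspa1b was read in 24.6% and 36.6% of the thinned Car4- cells at P21. In Car4+ capillaries Hspa1a was read in 49.1% and 49.4% of thinned P21 cells and in 3.39% of the cells of the P1 female mouse.

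**Figure D2:**
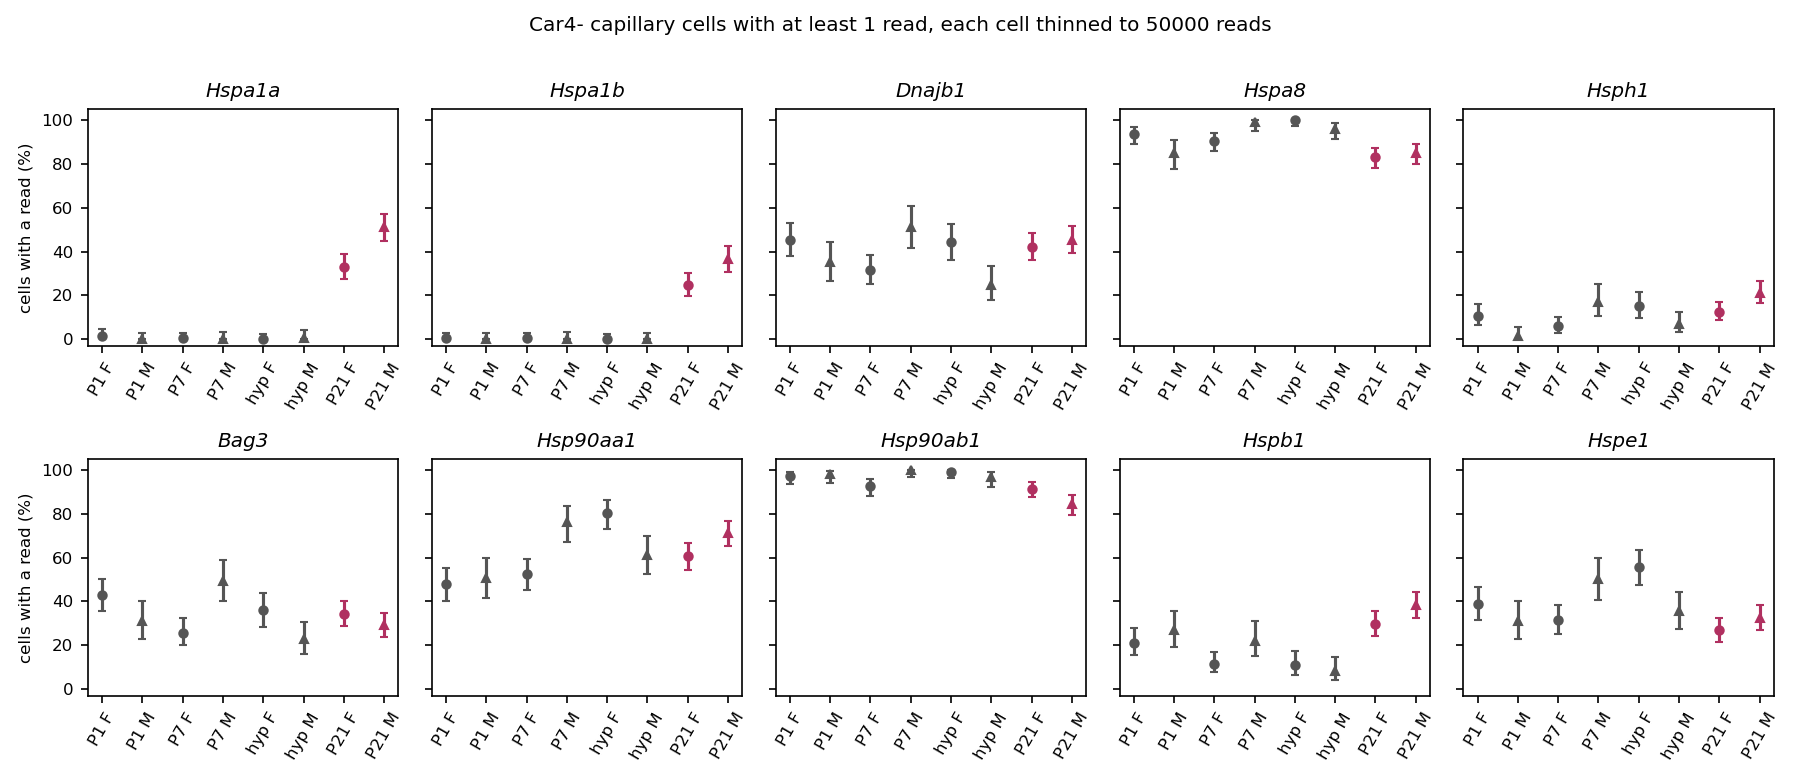
Percent of Car4- capillary cells with at least 1 read of each of the 10 genes after thinning every cell to 50000 reads, 1 point per mouse with its 95% Clopper-Pearson interval, P21 mice in red (hyp, P7 hyperoxia). Hspa1a is read in 33.1% and 51.1% of P21 cells and in at most 1.67% of the cells of any other mouse, while Hspa8 and Hsp90ab1 are read in most cells of every mouse.

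Within the P21 mice the reads of most members were concentrated in few cells, while those of Hsp90ab1 and Hspa8 were spread over most cells. In Car4- capillaries the median cell had 0 CPM of Hspa1a in the female and 35.2 CPM in the male P21 mouse, while the highest cells reached 10005 and 7640 CPM. The 28 and 27 cells with the highest values (the top 10%) held 78.0% of the summed CPM of Hspa1a in the female and 51.5% in the male mouse. For Hsph1 the top 10% held 98.6% and 91.8%, but for Hsp90ab1 29.9% and 30.04% and for Hspa8 36.9% and 32.3%. Hspe1 was as concentrated as the inducible genes (75.2% and 74.2%), and Hsp90aa1 lay between (54.96% and 42.9%, with a read in 64.3% and 72.8% of cells). Over all classes, 104 of 348 cells of the P21 female mouse and 163 of 359 of the P21 male mouse had at least 100 CPM of Hspa1a. The other 8 mice had 0 to 7 such cells each, with the highest share (2.35%) in the E18.5 female.

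Reads of several members were often found in the same cells, and no share expected from independent genes was computed. Thinned Car4- cells with reads of at least 7 of the 10 genes made up 20.96% and 32.1% of cells in the P21 mice and between 0% and 5.56% in each other mouse. Since the members were chosen for being higher at P21, this difference between mice follows at least in part from that choice. Of the P21 Car4- cells with a read of Hspa1b, 71.9% and 79.2% also had a read of Hspa1a. The split of reads between these near-identical copies is uncertain, and so is this overlap. Across cells within a P21 mouse, the correlations of the 45 gene pairs were all above 0 in Car4- capillaries, with medians of 0.22 and 0.26. The highest correlations of Hspa1a were with Hspa1b (0.61 and 0.42) and Hsp90aa1 (0.47 and 0.46), and those with Hspb1 were 0.26 and 0.31. These correlations are over 272 and 268 cells that share a mouse and differ in depth, and they are given as a description. No pairs of other genes are set beside them.

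The P21 and P7 mice were also set side by side within single sequencing runs. These cells are part of those on which the members were chosen, so the counts below follow at least in part from that choice. Sex is tied to run in these pairs, and in run DC21 the gate differs between the ages as well. Run DC30 held CD31-gate cells of the P7 and P21 male mice, and there all 10 genes were higher at P21 in Car4- and in Car4+ capillaries (all genes 41.4% and 40.9%), with median log2 differences of 2.45 and 2.08. Hspa1a was at 780 CPM in the P21 and at 0.0875 CPM (2 reads) in the P7 Car4- cells of that run. Run DC21 held mesench-gate cells of the P21 female and CD31-gate cells of the P7 female mouse. There 7 of 10 genes were higher at P21 in Car4- capillaries (all genes 33.7%) and 6 of 10 in Car4+ capillaries (all genes 35.1%). The median log2 differences of the 10 genes were 1.54 and 0.67 in this run, lower than in run DC30. Hspa8, Hsp90ab1 and Hspe1 were lower in both classes, and Bag3 was lower in the Car4+ class. Hspa1a was at 918 CPM in the P21 and at 1.16 CPM (204 reads, all of 1 cell) in the P7 Car4- cells of run DC21. Each of these is 1 mouse against 1 mouse and has no replicate check.

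**Figure D3:**
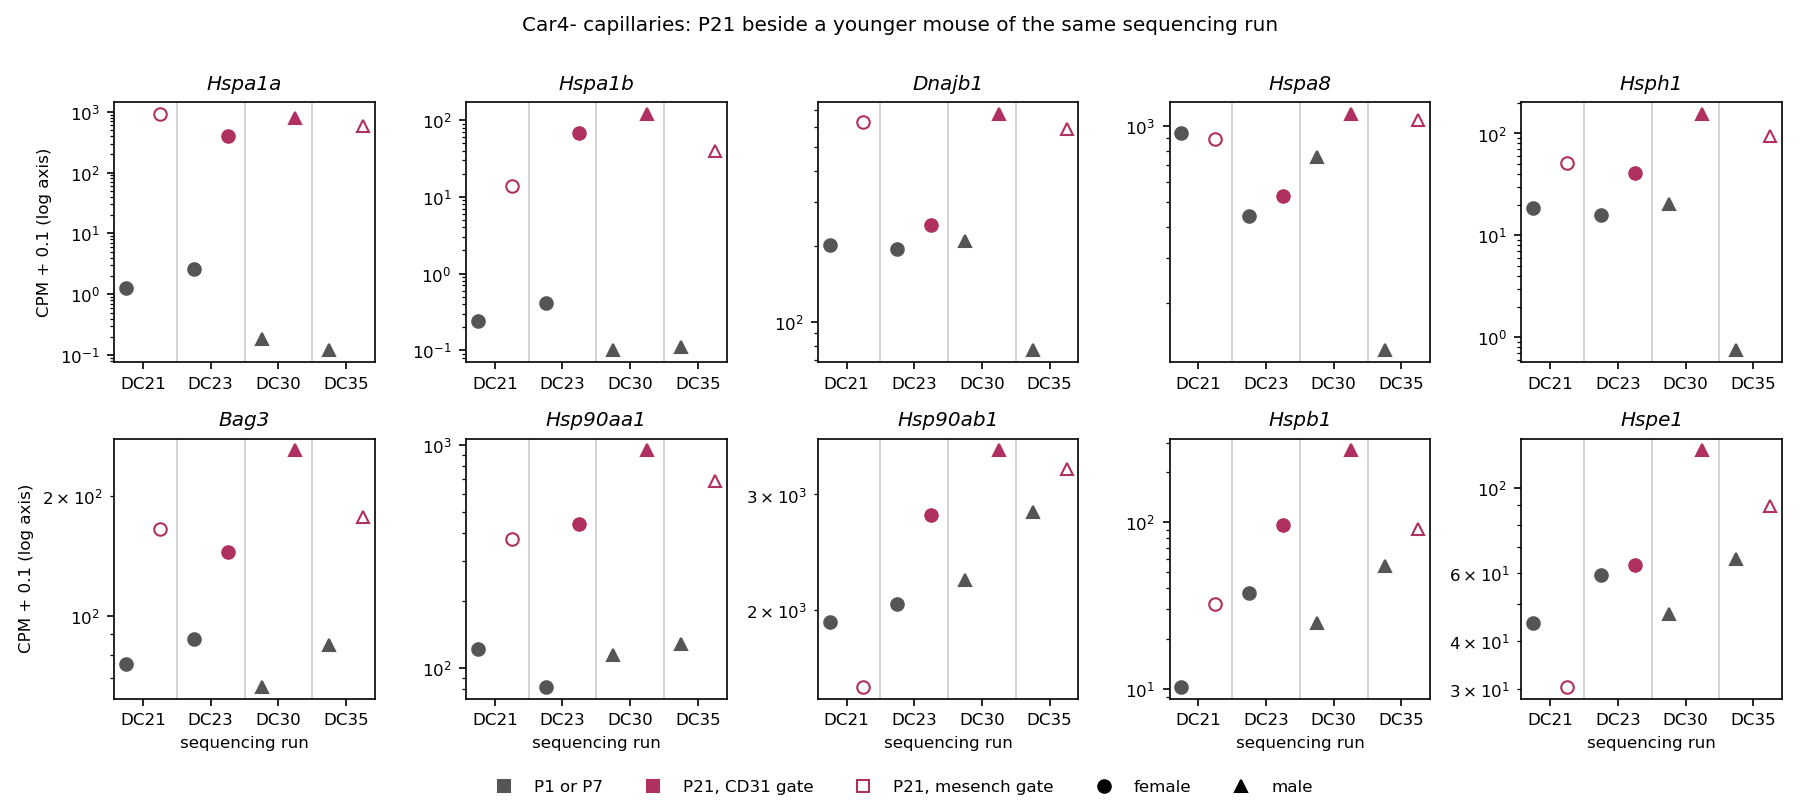
Levels of the 10 genes in Car4- capillaries in CPM (log axis, 0.1 added) for 4 sequencing runs that hold a P21 mouse and a P1 or P7 mouse, grey for P1 or P7, filled red for P21 cells of the CD31 gate and open red for P21 cells of the mesench gate. Hspa1a is at 780 CPM against 0.0875 CPM in run DC30 and at 918 CPM against 1.16 CPM in run DC21.

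The sort gate was compared in the Late Car4- capillaries of the P21 mice, where each mouse gave cells of both gates, though from different runs, so that gate and run cannot be told apart. Of all 12371 genes tested, 0.00808% (1 gene) were called with edgeR's quasi-likelihood test at a Benjamini-Hochberg adjusted p under 0.05, and none of the 10 members was (1 member at an unadjusted p under 0.05, 0 members called by DESeq2). Over all Car4- cells, Hspb1 was at 96.5 and 269 CPM in CD31-gate cells of the female and male mouse and at 32.4 and 90.6 CPM in mesench-gate cells. It was lower in the mesench gate in both mice (log2 difference -1.32, SE 0.57, adjusted p = 0.785). Hspa1b was also lower in both, at 67.3 and 120 CPM against 13.8 and 39.8 CPM (adjusted p = 0.834). Hspa1a was not ordered by gate: it was at 392 CPM (CD31) and 918 CPM (mesench) in the female and at 780 and 587 CPM in the male mouse. In each gate of both P21 mice it was thus at 392 CPM or more.

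The earlier ages were compared by test. The P7 mice also stand in the contrast that chose the genes, so tests against them are not fully independent of that choice. From embryonic to postnatal capillaries (nonproliferative embryonic EC at E18.5 against Car4- capillaries at P1), 0.494% of 14967 genes were called and no member was (2 at an unadjusted p under 0.05; 0 by DESeq2, which called 640 genes). Hsp90aa1 was at 280.2 and 185.2 CPM at E18.5 and at 83.7 and 127 CPM at P1 (log2 difference -1.01, SE 0.44, edgeR quasi-likelihood adjusted p = 0.505). Bag3 was at 46.6 and 53.4 CPM at E18.5 and at 85.7 and 84.8 CPM at P1 (0.86, SE 0.40, adjusted p = 0.528). In both genes the ages did not overlap, but neither difference passed the threshold. Hspa1a was at 2.92 and 5.34 CPM in the embryonic cells, above the P1 mice (2.42 and 0.0202 CPM) and far below the P21 mice.

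Between P1 and P7 in Car4- capillaries 0% of 14967 genes were called by edgeR (1632 at an unadjusted p under 0.05; DESeq2 called 348). No member was called by either tool. Hspa8 was higher at P7 in both mice (282 ± 215 CPM at P1 and 833 ± 153 CPM at P7, n = 2 each; log2 difference 1.54, SE 0.51, edgeR adjusted p = 0.427). Hspb1 was lower (45.8 ± 12.5 and 14.7 ± 6.63 CPM; -1.80, SE 0.57, adjusted p = 0.427). The same 2 genes had the lowest unadjusted p of the members in proliferative EC, where Hspa8 differed by 1.23 and Hspb1 by -2.58 on the log2 scale (edgeR adjusted p = 0.499 for each). In Car4+ capillaries Hspb1 was at 116 and 344 CPM at P1 and at 49.7 and 10.99 CPM at P7 (-2.96, SE 0.78, adjusted p = 0.730), and DESeq2 called this difference, with 2.89% of 11716 genes called. In venous EC Hspa8 differed by 1.42 (adjusted p = 1.0).

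Few genes were called over all mice in these comparisons. In Car4+ capillaries 0% of 12284 genes were called between P1 and P7 (772 at an unadjusted p under 0.05; DESeq2 called 339). In proliferative EC 0% of 13102 genes were called between E18.5 and P1 and 0% between P1 and P7 (972 and 1287 with an unadjusted p under 0.05; 661 and 825 called by DESeq2). In venous EC 0.0162% of 12326 genes were called between E18.5 and P1 and 0% between P1 and P7 (1074 and 396 with an unadjusted p under 0.05; 777 and 119 called by DESeq2). In venous EC Hspb1 was at 0.0975 and 0 CPM at E18.5 and at 6.22 and 28.9 CPM at P1 (11 to 50 cells per mouse), with an edgeR adjusted p of 0.501, and DESeq2 called it, with 6.63% of 11716 genes called. No member was called by edgeR with all mice, where 9 or 10 of the 10 members passed the filter on low counts. These counts rest on single mice: in proliferative EC the 0 genes of both contrasts became 924 and 1207 without the P1 female and 100 and 79 without the P1 male mouse. In venous EC the 2 genes between E18.5 and P1 became 666 without the E18.5 female and 233 without the E18.5 male mouse. In Car4+ capillaries the 0 genes between P1 and P7 became 68 without the P1 female mouse. Hspa8 was called in proliferative EC between P1 and P7 without the P1 female, and Bag3 in venous EC between E18.5 and P1 without the E18.5 female mouse.

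Among the subtypes, Hspb1 set the Car4+ apart from the Car4- capillaries. In Car4- cells it ranged from 4.71 to 195 CPM over the 8 postnatal mice and in Car4+ cells from 10.99 to 548 CPM. It was higher in the Car4+ cells of 7 of 8 mice, for example at 116 against 36.9 CPM in the P1 female and at 68.1 against 7.87 CPM in the male hyperoxia mouse, and lower only in the P7 male mouse (10.99 against 19.4 CPM). In a model that paired both classes of each mouse the difference was 2.27 on the log2 scale (SE 0.37, a 4.82-fold higher level; edgeR's quasi-likelihood test, Benjamini-Hochberg adjusted p = 0.00216), and 8.53% of 14711 genes were called. The call was lost in the fit without the mouse term (2.10, adjusted p = 0.159) and held in all the other alternatives, including the fit without both P21 mice. The share of cells went the same way: 64.4% of thinned Car4+ against 21.1% of thinned Car4- cells of the P1 female had a read of Hspb1, and 77.2% against 29.8% of those of the P21 female, with the P7 male mouse again the exception (20.8% against 22.1%).

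The other 9 genes were not called between the capillaries (2 of the 10 members had an unadjusted p under 0.05). Bag3 was 0.56 higher in Car4+ capillaries on the log2 scale (SE 0.23, edgeR adjusted p = 0.169), and Hspa8 and Hsp90ab1 differed by 0.06 (SE 0.14) and 0.02 (SE 0.13). The median difference was -0.116 for the members and -0.445 for all genes tested. Among the related lists, Dnajb4, an HSP40 like Dnajb1, was higher in Car4+ capillaries by 2.71 (SE 0.28, edgeR adjusted p = 6.921e-05), as 1 of 27 other cytosolic chaperones called. Of 17 genes of the endoplasmic reticulum, Herpud1 (1.32) and Dnajb9 (1.13) were called higher and Pdia6 (-0.65) was called lower, where 8.53% of all genes were called.

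**Figure D4:**
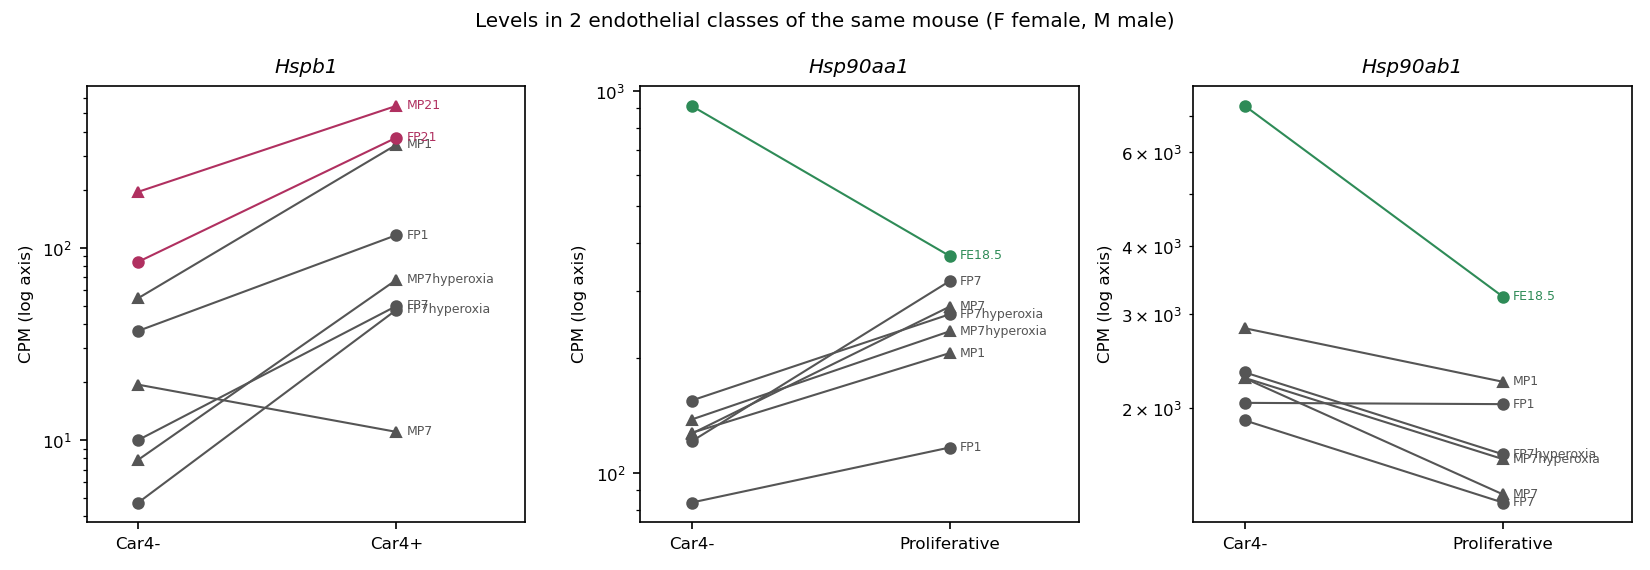
Levels in CPM (log axis) of Hspb1 in Car4- and Car4+ capillaries and of Hsp90aa1 and Hsp90ab1 in Car4- capillaries and proliferative EC, with a line joining both values of a mouse (P21 in red, E18.5 in green). Hspb1 is higher in the Car4+ cells of 7 of 8 mice, and Hsp90ab1 is lower in the proliferative cells of 7 of 7 mice.

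In proliferative EC the 2 cytosolic HSP90 genes went in opposite directions. Hsp90aa1 was higher than in Car4- capillaries in 6 of 7 mice (at P7 318 and 272 CPM against 121 and 127 CPM), and Hsp90ab1 was lower in 7 of 7 (1337 and 1384 CPM against 1900 and 2275 CPM at P7). Over all 7 mice neither was called (log2 differences 0.54, SE 0.36, and -0.60, SE 0.18; edgeR adjusted p = 0.817 and 0.192), where 1.45% of 14591 genes were called. Without the E18.5 female mouse and its 13 Car4- cells both passed, Hsp90aa1 with 0.87 (SE 0.16, edgeR adjusted p = 0.0188) and Hsp90ab1 with -0.42 (SE 0.10, adjusted p = 0.0492), in a fit that called 3.43% of 14332 genes. Hspa1b was the member called over all 7 mice (-6.06, SE 1.27, edgeR adjusted p = 0.0421), but its fold rests on the 693 reads of 1 cell of the E18.5 female: that mouse had 109 CPM in Car4- and 1.98 CPM in proliferative cells, and the other 6 mice had at most 0.365 CPM in either. Hspe1 was lower in 7 of 7 mice (-0.78, adjusted p = 0.539). At E18.5, 1.42% of 13353 genes were called between proliferative and nonproliferative embryonic EC and no member was (1 at an unadjusted p under 0.05; 0 by DESeq2). There Hspb1 was at 58.1 and 18.52 CPM in proliferative and at 88.1 and 54.0 CPM in nonproliferative cells (-1.03, edgeR adjusted p = 0.442).

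In venous, arterial and lymphatic EC the inducible genes were uneven. In venous EC, with 3.02% of 14389 genes called against Car4- capillaries, no member was called by edgeR (2 at an unadjusted p under 0.05). Hspa1a was nevertheless higher than in Car4- cells in 7 of 8 mice (20.1 against 2.42 CPM in the P1 female and 4.65 against 0.0684 CPM in the P7 male mouse; log2 difference 2.98, SE 0.85, adjusted p = 0.0928), and DESeq2 called it together with Hsph1, among 12.3% of 14371 genes. Hsph1 was higher in 7 of 8 mice (1.59, SE 0.62, adjusted p = 0.245) and Dnajb1 in 8 of 8 (0.48, SE 0.23, adjusted p = 0.381). Without the E18.5 female mouse 6.03% of 14587 genes were called and still no member, with Dnajb1 at 0.64 (SE 0.17, edgeR adjusted p = 0.0592) and Hspa1a at 2.72 (SE 0.80, adjusted p = 0.0763). In the 13 venous cells of the P21 female mouse Hspa1a was at 240.6 CPM, below the 477 CPM of its Car4- cells, and Hspb1 was at 153 CPM. The P21 male mouse had 4 venous cells and was not used.

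In arterial EC (the label Arterial I, 6 mice, 0.0623% of 12841 genes called against Car4- capillaries) no member was called (0 at an unadjusted p under 0.05; 0 by DESeq2), and none without the E18.5 female mouse, where 0.238% of 13877 genes were. Hspa1a had reads in 1 of 7 mice, with 3.25 CPM in the female hyperoxia mouse, and Hspa8 was level with Car4- capillaries (-0.01, SE 0.25). In lymphatic EC (3 mice, 5.62% of 13779 genes called, 147 to 763 genes with single mice left out) Hsph1 was higher than in Car4- capillaries in 3 of 3 mice, at 73.3 against 15.5 CPM in the P1 female, 29.3 against 0.645 CPM in the P1 male and 57.6 against 19.1 CPM in the female hyperoxia mouse. This difference of 2.80 (SE 0.90) had an edgeR adjusted p of 0.148 and was called by DESeq2, among 19.4% of 13326 genes. Hspa1a had no read in any of the 4 mice with at least 8 lymphatic cells. Of the other cytosolic chaperones, Hspa4l, an HSP110 like Hsph1, was called higher in lymphatic EC (2.23, SE 0.49, adjusted p = 0.0470).

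No heat shock gene passed the threshold between hyperoxia and normal air at P7 in any of the 4 classes compared. In Car4- capillaries 0.00668% of 14967 genes (1 gene) were called (812 with an unadjusted p under 0.05; 225 by DESeq2), and in Car4+ capillaries 0% of 12284, in proliferative EC 0% of 13102 and in venous EC 0% of 12326 (757, 339 and 331 with an unadjusted p under 0.05; 384, 167 and 151 called by DESeq2). No member was called by edgeR or DESeq2 in any of them, and 1 member had an unadjusted p under 0.05. That member was Hspb1 in Car4- capillaries, at 9.97 and 19.4 CPM in normal air and at 4.71 and 7.87 CPM after hyperoxia, with no overlap (log2 difference -1.23, SE 0.56, edgeR adjusted p = 0.898). In Car4+ capillaries it was at 49.7 and 10.99 CPM in normal air and at 47.5 and 68.1 CPM after hyperoxia (0.78, SE 0.73, adjusted p = 0.920).

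Dnajb1 in Car4- capillaries was at 211 and 177 CPM in normal air and at 126 and 75.4 CPM after hyperoxia, again without overlap (-0.98, SE 0.51, edgeR adjusted p = 0.920). The HSP90 genes were higher after hyperoxia, also without overlap. Hsp90aa1 was at 121 and 127 CPM and at 155 and 138 CPM (0.21, SE 0.44), and Hsp90ab1 at 1900 and 2275 CPM and at 2333 and 2279 CPM (0.12, SE 0.42). Over the members of this class, 3 were lower without overlap, 3 were higher and 4 overlapped. The share of all genes with such a pattern is not given. Hspa1a had 1.11 and 0.0684 CPM in normal air and 0 and 0.185 CPM after hyperoxia in these cells. The hyperoxia mice were thus in the low range of the P1 and P7 mice. The median log2 difference of the members was -0.271 in Car4- capillaries, against -0.01 for all genes tested. The SE was between 0.40 and 0.51 on the log2 scale for 6 members in this class. The differences of Hspb1, Dnajb1 and Hspa1a (-2.86, SE 1.39), each about 2 SE from 0, were far from the threshold with 2 mice per group.

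**Figure D5:**
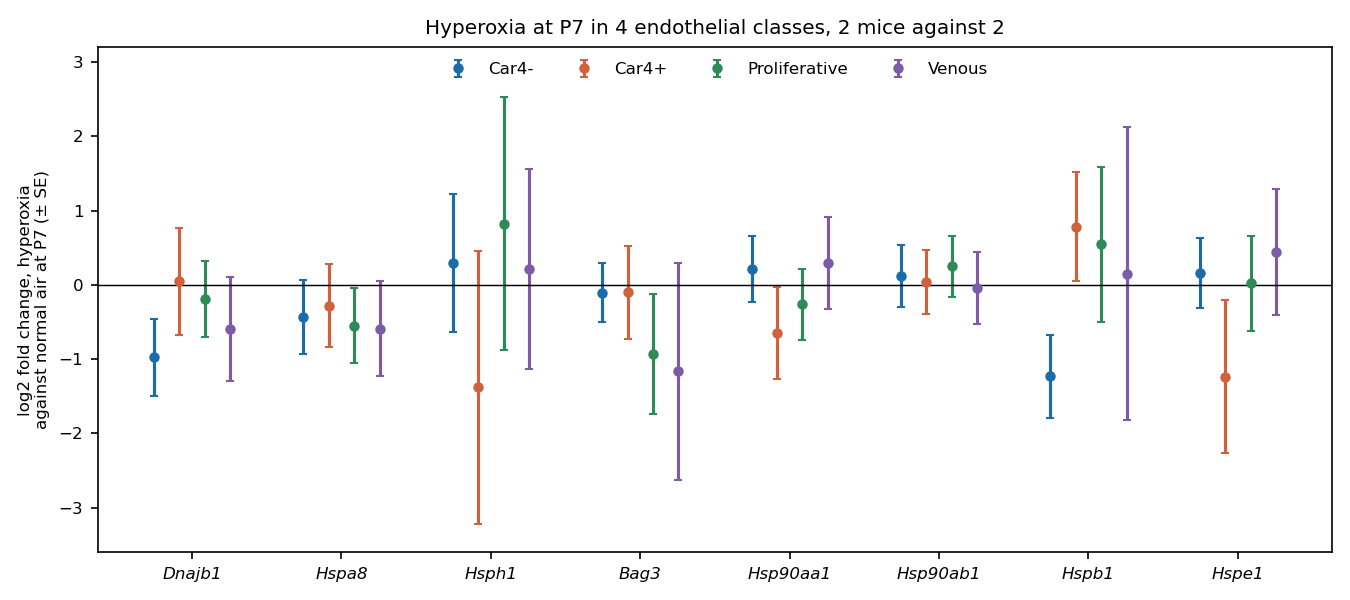
Log2 fold change of 8 heat shock genes (without Hspa1a and Hspa1b) between hyperoxia and normal air at P7, with the standard error of edgeR's fit, in Car4- capillaries, Car4+ capillaries, proliferative EC and venous EC. None of the points passed the adjusted threshold, and the point of Hspb1 in Car4- capillaries lies at -1.23.

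The rest of the chaperone network was mixed at P21. In Car4- capillaries, 8 of 27 other cytosolic chaperones and cochaperones were higher in both P21 than in both P7 mice (all genes 19.9%). Of the rest, 4 were lower (all genes 21.2%) and 15 overlapped, and the median log2 difference of the list was 0.19. Dnaja1, an HSP40, was at 480 ± 279 CPM at P21 and 243 ± 28.4 CPM at P7 (SD, n = 2 each), without overlap. Ubb, a polyubiquitin gene, overlapped (3096 ± 1187 and 2377 ± 316 CPM). All this is description, since these lists were read on the contrast that chose the members.

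The TRiC chaperonin, which folds actin and tubulin, went the other way: 7 of its 8 subunits were lower in both P21 than in both P7 mice (all genes 21.2%) and 1 overlapped, with a median of -0.60. Its summed level was 1307 and 1703 CPM at P21 and 2275 and 2131 CPM at P7. In Car4+ capillaries 2 of 8 were lower (all genes 12.8%) and 6 overlapped (median -0.54). Of 4 mitochondrial chaperones in Car4- capillaries, 1 (Grpel1) was lower (all genes 21.2%) and 3 overlapped. Among the latter was Hspd1, the chaperonin that Hspe1 caps, with 91.0 ± 59.8 CPM at P21 and 58.6 ± 4.28 CPM at P7. Of 17 chaperones and stress genes of the endoplasmic reticulum, 4 were higher (all genes 19.9%), 1 was lower (21.2%) and 12 overlapped (median 0.07). Hsp90b1, its HSP90, was higher (758 ± 15.1 and 571 ± 102 CPM), while Hspa5 (BiP), its HSP70, overlapped (745 ± 89.7 and 624 ± 108 CPM). The factor Hsf1 itself was at 43.9 ± 1.74 CPM at P21 and 36.6 ± 4.89 CPM at P7, and the other 3 genes of the heat shock factor list overlapped.

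Many of the immediate early genes, which dissociation of tissue can switch on, were higher at P21 than at P7 too, and their summed level at P21 overlapped that of the embryo. Of 20, 14 were higher in both P21 than in both P7 mice in Car4- capillaries (all genes 19.9%), 0 were lower (21.2%) and 6 overlapped. Their median log2 difference was 0.99. In Car4+ capillaries 10 were higher (all genes 20.9%), 1 was lower (12.8%) and 9 overlapped (median 0.94). Their summed level in Car4- capillaries was 13232 and 12909 CPM at P21, 4768 and 7604 CPM at P7, 10832 and 8589 CPM at P1, and 6957 and 5982 CPM after hyperoxia. In the nonproliferative embryonic EC of E18.5 it was 12170 and 14514 CPM, which overlapped the P21 values, with Hspa1a at 2.92 and 5.34 CPM. Fos was at 1560 ± 268 CPM at P21 and at 854 ± 689 CPM at P7, Dusp1 at 1507 ± 255 and 964 ± 131 CPM, and Ier3 at 1469 ± 171 and 460 ± 265 CPM (SD, n = 2 each). The P1 mice lay between the P7 and the P21 mice in the sum of the immediate early genes, with Hspa1a at 2.42 CPM or less. Whether this sum and Hspa1a respond to the same step of preparation was not tested. In the tested comparison of Car4+ with Car4- capillaries, 7 of these 20 genes were called higher and 1 lower (edgeR's quasi-likelihood test, all genes 8.53%). They were led by Nr4a1 (1.38), Cebpd (-1.28), Egr1 (0.96) and Jun (0.91). In venous EC 6 were called higher (202 of all 14389 genes called higher), with Zfp36 at 1.99, Cebpd at 1.65, Fos at 1.60 and Junb at 1.45. In lymphatic EC 4 were called lower (400 of all 13779 genes called lower), namely Nr4a1 (-3.04), Ier3 (-2.89), Jun (-2.23) and Ier2 (-1.40). Between proliferative and nonproliferative EC at E18.5, 4 were called lower (Atf3, Ier3, Btg2 and Dusp1). There 1.42% of all genes were called, 8 of 13353 of them lower. How the cells were prepared at each age is not given in the sources used here, so age and preparation cannot be told apart, and the part of preparation in the P21 levels was not tested.

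Over 48 sums of CD31-gate cells (every mouse and class with at least 8 cells, 10 mice), the log2(CPM + 1) of Hspa1a ran most like that of its copy Hspa1b among the members (Pearson r = 0.77, with 90.4 CPM in the P21 and 3.01 CPM in the other sums). Hspa1b had a mean under 20 CPM and so was not among the 7054 genes with a mean of at least 20 CPM. The first 5 genes among those that are no members were Ccnl1 (Pearson r = 0.62), Mndal (0.61), Rsrp1 (0.60), Cyp1a1 (0.59) and B2m (0.58). Their mean levels in the P21 and the other sums were 496 and 256 CPM for Ccnl1, a cyclin involved in splicing, 156 and 8.59 CPM for Mndal, an interferon-inducible gene, 781 and 238 CPM for Rsrp1, 139 and 10.5 CPM for Cyp1a1, a target of the aryl hydrocarbon receptor, and 4166 and 1357 CPM for B2m, the light chain of MHC class I. The other members came after them, from Hsp90aa1 (0.51), Hsph1 (0.51), Hspb1 (0.47) and Dnajb1 (0.46) down to Hsp90ab1 (0.22) and Hspe1 (0.19). These correlations are a description: sums of 1 mouse share its library preparation, and the P21 sums set the high end of Hspa1a. The means of Mndal and Cyp1a1 pass 20 CPM only through the P21 sums.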

How the data were processed

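RNA of single lung EC was read as plate-based Tn5 libraries without molecular identifiers. The authors deposited 1 table of raw read counts, aligned with STAR 2.5.2b and counted with HTSeq 0.10, per the submitters' processing notes. Those notes name a human build for these mouse cells, so gene positions are those of GENCODE M21 (GRCm38), where 18017 of the 18072 symbols were found. The table has no mitochondrial, ribosomal protein or spike-in genes and holds 89.02% of the reads in the coverage labels. No value was normalized before deposit, and 103 genes had 0 reads.

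Raw counts were summed per mouse and class (at least 8 cells) and tested in R 4.3.3 with edgeR 4.0.16: TMM, the filterByExpr filter on low counts, the quasi-likelihood F test, Benjamini-Hochberg adjustment over all genes tested, and a call at an adjusted p under 0.05. Comparisons over ages and treatment had all groups of a class in 1 model. Comparisons of classes or gates had the mouse as a term, since both sums come from the same mouse. Alternatives were DESeq2 1.42.0, RLE scaling, no filter, limma 3.58.1 on log2 of mean CPM, cells thinned to 50000 reads, CD31-gate cells alone, a sex block, no mouse term, and each mouse left out. The fitting script was tested on simulated data.

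The members and lists were chosen with earlier results of these data known. All 10 members are named. Other genes are named where a list gene was called in a comparison of subtypes or gates (up to 4 a list by size of change) or as up to 3 list genes of highest mean CPM, and Dnaja1, Hspd1 and the P21 values of Ier3, outside that rule, were named after their values were seen. The values of 1 list gene are not reported here. For genes like Hspa1a the first 5 by Pearson correlation are named.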

Additional observations from a re-analysis of the deposited data

Results flagged for a closer look

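In 5 cases every mouse of one group moved one way and every mouse of another the opposite way. None of these differences was tested, and each rests on 2 mice per group. The cases were picked for this pattern from the heat shock genes over several classes and groups. The number of combinations searched and the share of all genes with the pattern are not given. Such cases can thus arise by chance, and they are given as a description only. For hyperoxia against normal air the values are differences between log2 ratios of group mean CPM, with 1 added to each mean. For class against class they are differences between means of the log2(CPM + 1) ratios of single mice.

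Between hyperoxia and normal air at P7, Hsph1 was higher in Car4- capillaries (19.1 and 23.8 against 17.8 and 16.5 CPM) and lower in Car4+ capillaries (0.752 and 10.2 against 13.1 and 11.3 CPM), a difference of 1.34. Hsp90aa1 was higher after hyperoxia in Car4- capillaries (155 and 138 against 121 and 127 CPM) and lower in proliferative EC (260.0 and 235 against 318 and 272 CPM), a difference of 0.492.

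Hspa8, the constitutive HSP70, was lower in Car4+ than in Car4- capillaries of both P7 mice (823 against 941 and 335 against 725 CPM). It was slightly higher in those of both P21 mice (608 against 604 and 1103 against 1091 CPM), a difference of -0.665 between P7 and P21. It was lower again in both hyperoxia mice (754 against 821 and 341 against 443 CPM), a difference of 0.262 between P21 and hyperoxia.

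Hspb1 was lower in proliferative EC than in Car4- capillaries of both P7 mice (3.56 against 9.97 and 13.96 against 19.4 CPM) and higher in both hyperoxia mice (12.3 against 4.71 and 12.97 against 7.87 CPM), a difference of -1.79.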

How the results depend on the processing

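Over 18 comparisons, 230 of 253 alternative counts of called members were the same as with the main settings, and 23 moved. Between P1 and P7 in Car4+ capillaries the count of 0 became 1 with DESeq2 (Hspb1) and 2 without the filter (Hspb1 and Hspa1a), and with single mice left out it ranged from 0 to 1. In proliferative EC between P1 and P7 it ranged from 0 to 1 with single mice left out (Hspa8 without the P1 female). In venous EC between E18.5 and P1 it was 1 with DESeq2 (Hspb1) and 0 to 1 with single mice left out (Bag3 without the E18.5 female). For Car4+ against Car4- capillaries the count of 1 became 3 with limma (Hspb1, Hsp90aa1 and Hspe1). It became 0 with no replicate block, that is, without the mouse pairing the sums. Over all genes the calls there went from 1255 to 2061 with limma and to 626 with no block. For venous EC the count of 0 became 2 with DESeq2 (Hsph1 and Hspa1a), where all genes called went from 434 to 1771. For lymphatic EC it became 1 with DESeq2 and with limma (Hsph1), where all genes called went from 775 to 2581 and 1578. For proliferative EC against Car4- capillaries the count of 1 became 0 with DESeq2, no filter, CD31-gate cells alone or no replicate block, and 0 to 2 with single mice left out; the call of Hspa1b then had a log2 difference between -6.20 and -5.96 and was -3.34 with DESeq2 and -0.78 with limma. The cause of these changes was not tested. Sex as a replicate block changed no count of members. Between P1 and P7 in Car4+ capillaries, all genes called went from 0 to 339 with DESeq2 and to 48 without the filter. All genes called ranged from 0 to 1255 over the comparisons with edgeR, 119 to 3273 with DESeq2, 0 to 2061 with limma, 0 to 60 with the sex block and 0 to 842 with no block.

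The P21 difference in Car4- capillaries (median 2.06 on the log2 scale) was 1.246 without the P21 male mouse, and lay between 1.246 and 2.471 with single mice left out. Leaving out single mice was not run for the gate and for proliferative against embryonic EC, where no residual degrees of freedom are left. With 2 mice per group, most adjusted p-values cannot separate a small change from none, reads are not molecules, and the 2 near-identical Hspa1 genes share reads.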

Other observations

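In Late Car4- capillaries, the label that holds nearly all P21 Car4- cells (268 of 272 in the female and 265 of 268 in the male mouse), Hspa1a was at 483 and 718 CPM at P21. The 44 Late-labelled cells of the P7 female and the 21 of the P1 female mouse had no read of it. Hsp90aa1 in these Late-labelled cells was at 433 and 849 CPM at P21, 122 CPM in the P7 female and 246 CPM in the P1 female mouse. Not every member kept its difference within this label. Dnajb1 was at 316 and 650 CPM at P21, 506 CPM in the P7 female and 332 CPM in the P1 female mouse, which overlapped. Hspe1 was at 56.3 and 110 CPM at P21, 69.2 CPM in the P7 female and 228 CPM in the P1 female mouse. Bag3 was at 149 and 229 CPM at P21, 12.3 CPM in the P7 female and 143 CPM in the P1 female mouse.

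The ratio of Hspa1a to Hspa1b reads in Car4- capillaries was 8.31 in the P21 female and 8.12 in the P21 male mouse. It differed by gate: CD31-gate cells had 392 CPM of Hspa1a and 67.3 CPM of Hspa1b in the female mouse, and mesench-gate cells 918 and 13.8 CPM. In the male mouse CD31-gate cells had 780 and 120 CPM, and mesench-gate cells 587 and 39.8 CPM.

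Outside the capillaries and before P21, the highest levels of Hspa1a in a class were 20.1 CPM in venous EC of the P1 female (17 cells), 11.9 CPM in proliferative EC of the P7 female (55 cells) and 10.4 CPM in proliferative EC of the E18.5 female mouse (122 cells).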
